A study of Mus musculus with 8 samples.

Results

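Camkk1, its close relative Camkk2, the calmodulin-dependent kinases Camk1, Camk1d, Camk2d, Camk2g and Camk4, and Prkaa1, the catalytic AMPK subunit that Camkk2 can activate, were followed on 8 arrays of RAW264.7 cells. They are 8 of the 27343 gene names on the array, found by the gene name printed beside each probe, and 7 of them were among the 15440 genes that could be tested. Camkk1 was chosen on its signal under all-trans retinoic acid (ATRA) in these same arrays, so its values are a description and carry no test. The cells were treated with interleukin-13 (IL-13) together with ATRA, with ATRA, with IL-13, or left as untreated controls, and each of these 4 treatments had 1 array at 12 h and 1 array at 24 h. RAW264.7 is an established mouse line of macrophage-like cells grown from a virus-induced tumour. By the labels, cells given both agents are suppressed in M2 polarization, cells given IL-13 are M2 macrophages, and ATRA or untreated cells are unpolarized. They give no dose of either agent and leave unsaid whether each array came from a culture of its own. The spread behind each standard error, interval and p-value comes from how treatment differences changed between 12 h and 24 h. It holds no repeat at a fixed time, includes any real change with time, and may otherwise be technical.

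Calcium that enters the cytosol binds calmodulin, and calcium-calmodulin switches on a family of protein kinases. Camkk1 and Camkk2 encode the kinases at the top of this cascade, which phosphorylate the activation loop of the downstream kinases encoded by Camk1, Camk1d and Camk4. Camkk2 is also one of the upstream kinases of AMPK, the energy sensor whose alpha-1 subunit Prkaa1 encodes. Camk2d and Camk2g encode subunits of CaM kinase II, which phosphorylates itself and needs no upstream kinase. ATRA acts through nuclear retinoic acid receptors, and IL-13 acts through the transcription factor STAT6 in macrophages.

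Signals are given as scaled signal, which is the background-subtracted intensity after each array was brought to a common 75th percentile. That percentile lay between 448 and 739 before scaling, between 54.1% and 61.4% of probes were well above background, and 0 probes were saturated. Slide number was assigned here by time, 1 for the 4 arrays of 12 h and 2 for those of 24 h. Time therefore cannot be told apart from slide, but each treatment difference was taken within a time. All 8 macrophage markers examined, Csf1r, Adgre1 and Cd68 among them, were well above background on all 8 arrays. The same held for 2 of 4 T cell markers (Cd3e and Cd4), 0 of 4 B cell markers, 2 of 4 neuron markers (Syn1 and Tubb3) and 1 of 4 fibroblast markers (Col1a2), while Cd8a, Pax5, Snap25, Col1a1, Pdgfra and Dcn were well above background on 0 arrays. Their part in the results below was not tested.

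Camkk1 was detected wherever ATRA was present and nowhere else. Its 1 probe, at chr11:72855450-72855509 on the plus strand of mm9, had a scaled signal of 575 at 12 h and 1416 at 24 h with IL-13 and ATRA. With ATRA alone it had 1128 at 12 h and 1543 at 24 h. With IL-13 alone it had 2.62 and 2.53, and in control cells it had 1.68 and 4.31. The 4 arrays with ATRA did not overlap the other 4, on which the probe was not well above background at all. In bulk RNA, more cells that express a gene and more RNA per cell cannot be told apart. Because the control and IL-13 arrays give only a limit, sizes are taken against the lowest signal that counted as well above background on each of those arrays. Some probes not counted so read above it, among them a Camk2d probe with 9.85 in control cells at 12 h, where the limit was 8.33. The sizes are therefore approximate and no guaranteed bound. ATRA was 162.6-fold above the control limit over both times, 135.4-fold at 12 h and 195.2-fold at 24 h. IL-13 with ATRA was 103.9-fold above the limit of IL-13 alone, 44.86-fold at 12 h and 240.5-fold at 24 h. No difference between IL-13 and control is given, since both were below the limit.

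IL-13 did not remove the Camkk1 signal from ATRA-treated cells. The log2 difference of IL-13 with ATRA against ATRA was -0.55 ± 0.37 (SE, 2 arrays in each treatment), with -0.97 at 12 h and -0.12 at 24 h. The signal averaged 995 ± 595 with IL-13 and ATRA and 1335 ± 294 with ATRA alone, and the arrays of these treatments overlapped. Each SD is over n = 2 arrays, 1 at 12 h and 1 at 24 h, so it includes the difference between times. The standard error comes from all 8 arrays, the 4 dim ones included.

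**Figure D1:**
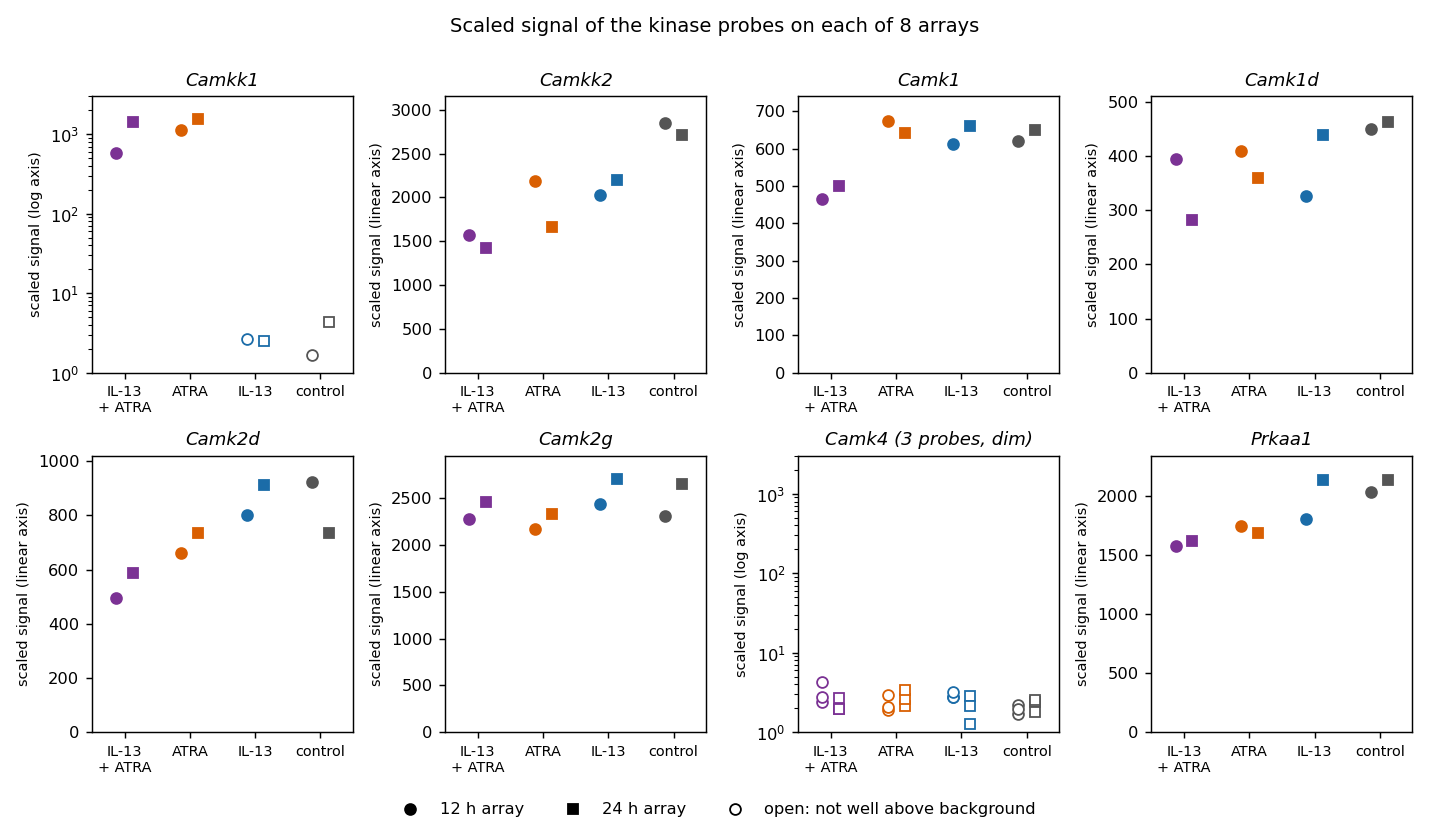
Scaled signal of each kinase on every array, by treatment, with 12 h arrays as circles and 24 h arrays as squares. The vertical axes of Camkk1 and Camk4 are logarithmic, the others are linear and start at 0, and open symbols mark probes not well above background. Camkk1 lies between 575 and 1543 on the 4 arrays with ATRA and between 1.68 and 4.31 on the other 4, while the 3 Camk4 probes have open symbols on all 8 arrays.

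The promoters of both CaM kinase kinases are shown because the signals of Camkk1 and Camkk2 differed from control in opposite directions with ATRA. Each window holds 250 bases before and 50 bases after the RefSeq start in GRCm38.p6, read 5′ to 3′ on the gene's strand. Capitals mark each CCAAT box (CCAAT) and each GC box (GGGCGG) found on either strand.
Camkk1, chr11:73018738-73019037, plus strand: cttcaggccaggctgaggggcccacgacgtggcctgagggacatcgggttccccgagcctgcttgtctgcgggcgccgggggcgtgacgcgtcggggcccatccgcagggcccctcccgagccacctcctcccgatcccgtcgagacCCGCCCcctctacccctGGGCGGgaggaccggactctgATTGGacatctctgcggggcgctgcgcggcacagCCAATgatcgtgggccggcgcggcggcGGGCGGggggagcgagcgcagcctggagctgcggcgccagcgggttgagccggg
Camkk2, chr5:122779361-122779660, minus strand: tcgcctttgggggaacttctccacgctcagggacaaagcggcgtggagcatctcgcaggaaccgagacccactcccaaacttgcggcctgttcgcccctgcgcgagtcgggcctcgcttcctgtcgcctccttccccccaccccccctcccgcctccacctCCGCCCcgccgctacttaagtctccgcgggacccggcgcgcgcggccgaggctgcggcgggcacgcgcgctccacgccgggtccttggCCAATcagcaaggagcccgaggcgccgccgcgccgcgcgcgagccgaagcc
The Camkk1 window held 2 CCAAT boxes, at -65 on the minus strand and at -31 on the plus strand, and 3 GC boxes, at -103, -86 and -4. The Camkk2 window held 1 CCAAT box at -1 and 1 GC box at -89. Of all 32851 promoter windows of this length, 37.4% held a CCAAT box and 35.7% a GC box on either strand, and some GC boxes overlap longer GC-rich runs. The element AGGTCA, which retinoic acid receptors bind in pairs, was found in neither window and in 16.3% of all windows. The element TGACG, the core of the site that CREB binds, was found once in the Camkk1 window, at -166, and in 20.8% of all windows. GC content was 75.3% for Camkk1 and 73.3% for Camkk2, against a median of 52.7% over all windows. Promoter windows were matched for 6 of the 8 genes, those of Camkk1, Camkk2, Camk1, Camk1d, Camk2d and Prkaa1. These matches are letters in a window and were not set against any binding data.

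The genes next to Camkk1 on the chromosome had small differences. In RefSeq's order the 3 protein-coding genes on either side are Zzef1, Atp2a3 and P2rx1 before it and Ncbp3, Itgae and Haspin after it, a set taken after the Camkk1 values were known. P2rx1, a gene for an ATP-gated channel, was well above background on 0 arrays. The log2 difference of ATRA against control was 0.00 ± 0.19 for Zzef1, -0.04 ± 0.11 for Atp2a3, an endoplasmic reticulum calcium pump, and 0.26 ± 0.10 for Ncbp3. It was 0.37 ± 0.33 for Itgae, an integrin alpha chain whose signal lay near background, and 0.20 ± 0.11 for Haspin, a histone kinase. None of these 5 passed the test in limma in any of 4 comparisons, and their adjusted p for ATRA against control ran from 0.332 for Ncbp3 to 0.999 for Zzef1.

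The 10 tested genes whose log2 signal was most like that of Camkk1 over the 8 arrays had Pearson correlations between 0.986 and 0.995. The measure is a description over 8 arrays that share the same 4 treatments, and for Camkk1 it rests on 4 arrays below background. The 10 are Tmem273, Car2, Rac2, Col14a1, Klhl12, Rab20, Bmp2, Txndc11, Hivep2 and Ccdc65. Car2, which encodes a carbonic anhydrase, had 41596 and 56378 with IL-13 and ATRA and 55044 and 60310 with ATRA, against 12170 and 13783 with IL-13 and 13817 and 14991 in control cells, at 12 h and 24 h. The 4 arrays with ATRA lay well apart from the other 4. Bmp2, a bone morphogenetic protein, had 43.4 and 65.7 with IL-13 and ATRA and 53.9 and 122 with ATRA, and was not well above background with IL-13 or in control cells. Col14a1, a fibril-associated collagen, was likewise well above background on the 4 arrays with ATRA and on 0 of the other 4. The remaining 7 had log2 differences of ATRA against control between 0.40 for Txndc11 and 2.70 for Ccdc65, which was near background without ATRA. All 10 were higher on every array with ATRA than on any array without it, as their selection by likeness to Camkk1 favours.

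Camkk2, the other kinase kinase, was lower under every treatment than in control cells, without passing the test. Its signal was 1569 at 12 h and 1418 at 24 h with IL-13 and ATRA, 2188 and 1664 with ATRA, and 2023 and 2203 with IL-13, against 2849 and 2714 in control cells. Both control arrays lay above all 6 treated arrays, and both arrays with IL-13 and ATRA lay below the other 6. The log2 difference was -0.54 ± 0.15 for ATRA against control (adjusted p = 0.173 in limma) and -0.40 ± 0.15 for IL-13 against control (adjusted p = 0.197). It was -0.50 ± 0.15 for IL-13 with ATRA against IL-13 (adjusted p = 0.17) and -0.36 ± 0.15 for IL-13 with ATRA against ATRA (adjusted p = 0.405). None passed the threshold of 0.05 after adjustment over all 15440 genes, and the first 3 had an unadjusted p below it. The comparisons share arrays, with the control arrays in the first and second, so their agreement is not independent. A second Camkk2 probe, at chr5:123183355-123183414 on the minus strand of mm9, gave -0.50, -0.58, -0.29 and -0.37 in the same order. The 3 RefSeq genes on either side of Camkk2, taken by the same rule, included P2rx4, an ATP-gated cation channel, with 0.96 ± 0.18 for ATRA against control (adjusted p = 0.0722), and none of the 6 passed the test in these comparisons.

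Camk1 encodes CaM kinase I alpha, a direct substrate of both kinase kinases. It differed little when ATRA or IL-13 was given alone and was lowest when both were given. Its signal was 466 at 12 h and 499 at 24 h with IL-13 and ATRA, 674 and 642 with ATRA, and 612 and 660 with IL-13, against 620 and 650 in control cells. Both arrays with IL-13 and ATRA lay below the other 6. The log2 difference was -0.40 ± 0.11 for IL-13 with ATRA against IL-13 (adjusted p = 0.144 in limma) and -0.45 ± 0.11 for IL-13 with ATRA against ATRA (adjusted p = 0.215), and neither passed. ATRA against control gave 0.05 with a 95% interval of -0.22 to 0.33, and IL-13 against control gave 0.00 with an interval of -0.27 to 0.28. The interaction, which is the departure of the combined treatment from the sum of both differences, was -0.45 ± 0.15 (adjusted p = 0.9999 in limma). Both Camk1 probes are shown because they read nearly adjacent stretches of the same transcript and give 2 measurements of it. Both lie on the minus strand of chromosome 6 in mm9, and 24 bases of the transcript separate them.
Camk1 upstream probe, chr6:113287209-113287268: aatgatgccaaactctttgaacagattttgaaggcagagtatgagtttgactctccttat
Camk1 downstream probe, chr6:113286369-113286428: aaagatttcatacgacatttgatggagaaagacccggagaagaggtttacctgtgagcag
The downstream probe is the brighter and was the one tested. The upstream probe gave -0.37 for IL-13 with ATRA against IL-13 and -0.44 against ATRA, which differ from those of the downstream probe by less than its standard error. It gave -0.09 for ATRA against control and -0.16 for IL-13 against control, so the sign of these small differences depended on the probe.

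Camk1d, which encodes CaM kinase I delta, another substrate of the kinase kinases, had no difference beyond its spread. Its brightest probe had 394 at 12 h and 282 at 24 h with IL-13 and ATRA, 411 and 360 with ATRA, and 326 and 440 with IL-13, against 451 and 464 in control cells. The control arrays lay above all 6 treated arrays, which overlapped among themselves. The log2 difference was -0.25 ± 0.23 for ATRA against control (95% interval -0.82 to 0.32) and -0.27 ± 0.23 for IL-13 against control (-0.84 to 0.30). For IL-13 with ATRA against IL-13 the difference was 0.27 at 12 h and -0.64 at 24 h, so the mean of -0.18 describes neither time. The other 2 Camk1d probes gave 0.12 and 0.05 for IL-13 against control.

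Camk4 encodes CaM kinase IV, the substrate of the kinase kinases best known in T cells and neurons. All 3 of its probes, on chromosome 18, were not well above background on any of the 8 arrays, with scaled signals from 1.28 to 4.27. It was therefore not tested, and no difference is given for it.

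Camk2d, which encodes the delta subunit of CaM kinase II, was lower with IL-13 and ATRA than with IL-13 alone on all 3 of its RefSeq-annotated probes, without passing the test. The brightest had 496 at 12 h and 587 at 24 h with IL-13 and ATRA, 661 and 737 with ATRA, and 802 and 911 with IL-13, against 923 and 735 in control cells. Both arrays with IL-13 and ATRA lay below the other 6. The log2 difference of IL-13 with ATRA against IL-13 was -0.66 ± 0.17 (adjusted p = 0.128 in limma), and the other 2 RefSeq probes gave -0.69 and -0.35. When every probe was tested on its own, an analysis added after these values were seen, the probe with -0.69 ± 0.12 had the lowest adjusted p of all the kinase probes, 0.0626. ATRA against control gave -0.24 ± 0.17, made up of -0.48 at 12 h and 0.00 at 24 h. Another 2 Camk2d probes, aimed at cDNA clones, were well above background on 0 and 4 arrays and are not read further.

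Camk2g, which encodes the gamma subunit of CaM kinase II, had the narrowest relative range among the 6. Its 1 probe had 2278 at 12 h and 2461 at 24 h with IL-13 and ATRA, 2171 and 2329 with ATRA, and 2443 and 2709 with IL-13, against 2311 and 2653 in control cells. Both ATRA arrays lay below both IL-13 arrays, and every other pair of treatments overlapped. The 95% interval was -0.40 to 0.12 for ATRA against control, -0.20 to 0.31 for IL-13 against control, -0.38 to 0.14 for IL-13 with ATRA against IL-13 and -0.18 to 0.33 for IL-13 with ATRA against ATRA.

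Prkaa1, which encodes the alpha-1 catalytic subunit of AMPK, was lower with ATRA on both probes, with or without IL-13, without passing the test. Its brightest probe had 1580 at 12 h and 1623 at 24 h with IL-13 and ATRA, 1749 and 1686 with ATRA, and 1804 and 2141 with IL-13, against 2038 and 2140 in control cells. On this probe all 4 arrays with ATRA lay below the other 4, though the gap at 12 h was small. How many of all genes keep this order was not counted. The log2 difference was -0.28 ± 0.12 for ATRA against control (adjusted p = 0.361 in limma) and -0.30 ± 0.12 for IL-13 with ATRA against IL-13 (adjusted p = 0.268), and neither passed. The second Prkaa1 probe gave -0.19 and -0.34 in these comparisons, but its arrays with IL-13 and ATRA lay above the control arrays. For IL-13 the probes disagreed. The second one had 749 and 825 with IL-13 and ATRA, 610 and 577 with ATRA, and 1004 and 982 with IL-13, against 671 and 679 in control cells. Its log2 difference of IL-13 against control was 0.56 (0.58 at 12 h and 0.53 at 24 h; adjusted p = 0.0906 when every probe was tested on its own), while the brightest probe gave -0.09.

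Counted together, 0 of the 6 tested kinases other than Camkk1 passed an adjusted p of 0.05 in limma in any comparison. Of all 15440 genes, 1.86% passed for ATRA against control, 1.27% for IL-13 against control, 2.64% for IL-13 with ATRA against IL-13, 0.363% for IL-13 with ATRA against ATRA and 0.0194% for the interaction. At an unadjusted p of 0.05 the count was 1 of 6, 1 of 6, 3 of 6, 1 of 6 and 1 of 6 in the same order, and the genes behind them are Camkk2, Camk1 and Camk2d. Of all genes, 15.1%, 23.9%, 19.1%, 12.9% and 3.65% had such a p. The median log2 difference of the 6 was -0.24 for ATRA against control, -0.04 for IL-13 against control, -0.35 for IL-13 with ATRA against IL-13 and -0.28 for IL-13 with ATRA against ATRA, and that of all genes tested lay between -0.02 and 0.00 in each. The signal was lower at both times in 4 of 6, 2 of 6, 5 of 6 and 5 of 6 in this order, and in 35.9%, 34.2%, 34.6% and 34.7% of all genes. Both control arrays lay above all treated arrays for 2 of 6, Camkk2 and Camk1d, as for 8.85% of all genes. Both arrays with IL-13 and ATRA lay below the other 6 for 4 of 6, Camkk2, Camk1, Camk2d and Prkaa1, as for 6.92% of all genes. These orders are those of the brightest probe. On every probe well above background on all 8 arrays, the first held for Camkk2 alone and the second for Camkk2 and Camk1, since the second Prkaa1 probe and a Camk2d probe did not keep it. The kinases were chosen with these comparisons in view, so nothing is read from these shares.

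**Figure D2:**
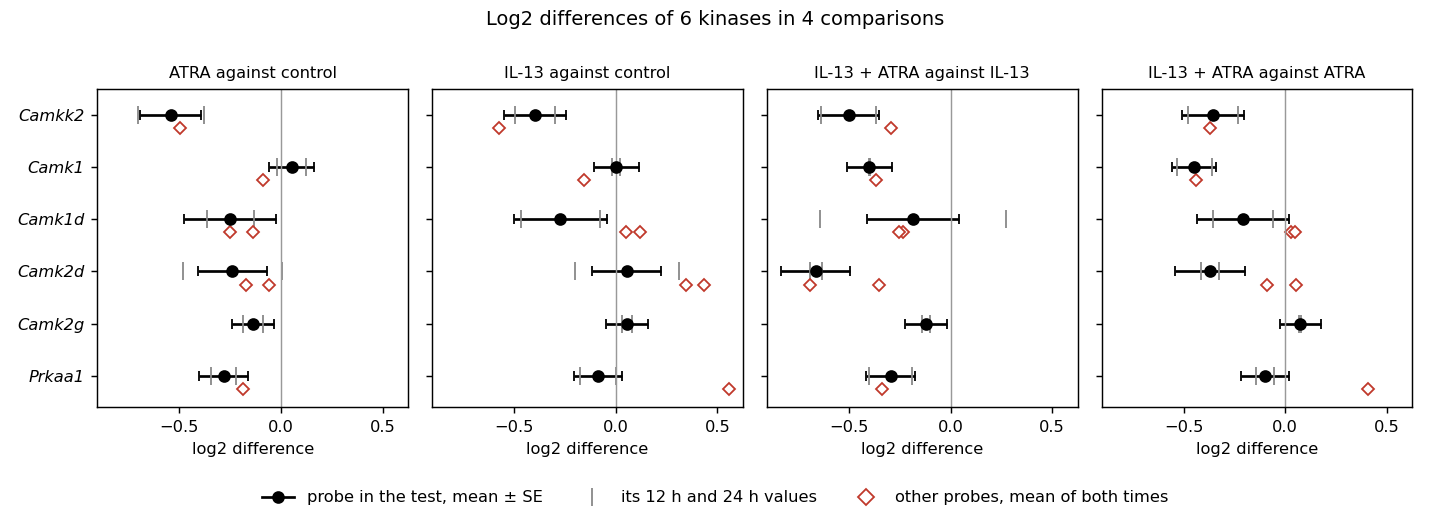
Log2 differences of the 6 tested kinases other than Camkk1 in 4 comparisons, with the tested probe as a black point with its standard error, its 12 h and 24 h values as grey ticks, and other probes that were well above background on all 8 arrays as red diamonds. Camkk2 lies left of 0 in all 4 panels with both probes, and the second Prkaa1 probe lies at 0.56 for IL-13 against control where the tested one lies at -0.09.

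The disagreement between Prkaa1 probes had a parallel in Camk2d and Camk1d. For 5 of the 7 genes tested a further probe upstream of the brightest one on the same strand was kept, which gave 8 probe pairs. The signal of the Prkaa1 probe 4276 bases upstream in the genome, divided by that of the brightest, was 0.474 and 0.509 with IL-13 and ATRA and 0.557 and 0.459 with IL-13. It was 0.349 and 0.342 with ATRA and 0.329 and 0.317 in control cells, so all 4 arrays with IL-13 lay above the 4 without it. For the Camk2d probe 1887 bases upstream the ratio was 0.824 and 0.715 with IL-13 and ATRA and 0.806 and 0.760 with IL-13, against 0.635 and 0.626 with ATRA and 0.570 and 0.635 in control cells. In 5 of the 8 pairs, from the 3 genes Prkaa1, Camk2d and Camk1d, all 4 arrays with IL-13 lay above the other 4, and in 0 they all lay below. Of all 5701 such pairs on the array, 8.09% had all 4 above and 7.44% all 4 below. The Camk1 and Camkk2 pairs and the dim Camk2d clone probe overlapped. This comparison was chosen after the probes were seen to disagree, and pairs of 1 gene share the brightest probe.

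**Figure D3:**
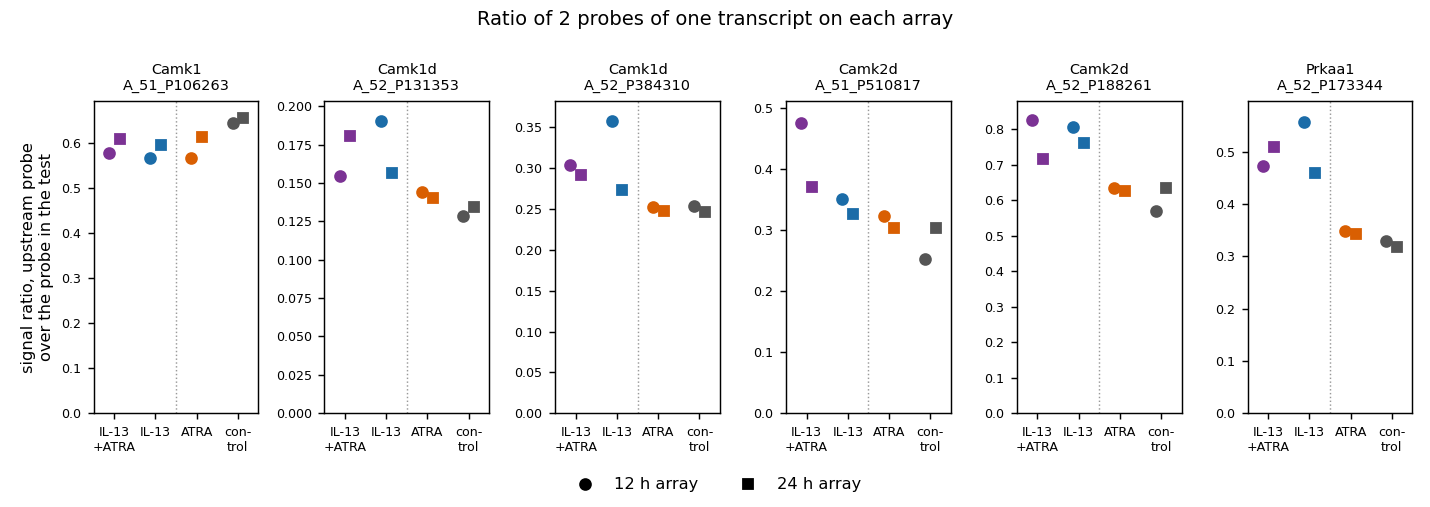
Signal of each upstream probe divided by that of the tested probe of the same transcript, on every array, with the treatments that contain IL-13 left of the dotted line and those without it on the right. Vertical axes start at 0, circles are 12 h arrays and squares 24 h arrays. In the 5 Camk1d, Camk2d and Prkaa1 panels the 4 points on the left lie above the 4 on the right, and in the Camk1 panel they overlap.

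Around these kinases, 7 lists of the calcium-calmodulin and AMPK pathways held 108 genes, of which 90 were tested. Only Mylk2, a calmodulin-activated myosin light chain kinase best known from skeletal muscle, passed in any of the 5 comparisons, for IL-13 against control. That is 1 of 90, and 1.27% of all genes passed in this comparison. Mylk2 had 52.4 and 42.1 with IL-13 and ATRA and 48.8 and 41.0 with IL-13, against 19.6 and 21.5 with ATRA and 17.7 and 19.3 in control cells. The log2 difference of IL-13 against control was 1.27 ± 0.16 (adjusted p = 0.0398 in limma). The call was lost when any 1 of the 8 arrays was left out, with an adjusted p from 0.0664 to 0.219. It was also lost with normexp background correction, which gave 0.47 (adjusted p = 0.194), and with no filter on dim probes (adjusted p = 0.24).

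Among 7 tested genes of the wider CaM kinase family, Cask, a membrane scaffold with a CaM kinase-like domain, had the largest difference of ATRA against control. Its signal was 2489 and 3595 with IL-13 and ATRA, 3642 and 3608 with ATRA, and 1403 and 1810 with IL-13, against 2181 and 2107 in control cells. The difference was 0.76 ± 0.18 (adjusted p = 0.127 in limma), and 3 further Cask probes gave 0.67, 0.78 and 0.91. For IL-13 with ATRA against IL-13 it was 0.91 ± 0.18 (adjusted p = 0.0753). Camk2b, a neuronal CaM kinase II subunit, was near background, at 5.72 to 9.78 with ATRA or IL-13 or both and 18.3 and 12.2 in control cells. It was well above background on 2 control arrays, 1 with ATRA, 1 with IL-13 and 0 with both. It was thus kept through the control arrays alone. Its second probe was well above background on 0 arrays, and Camk2b is not read further. Among 10 tested calmodulin and calmodulin-regulated kinase genes, Calml4, which encodes a calmodulin-like protein, gave -0.64 ± 0.27 for ATRA against control. Eef2k, the calmodulin-activated kinase of elongation factor 2, gave 0.48 ± 0.18, and neither passed.

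On the AMPK side, 3 of 10 tested subunit and upstream kinase genes had a positive and 7 a negative difference of ATRA against control, with a median of -0.10. The members with the largest differences were Stradb, a partner of the AMPK kinase LKB1, with -0.31 ± 0.16, and Cab39l, a scaffold of the same complex, with -0.23 ± 0.11. Of 12 tested AMPK substrates, 9 were positive and 3 negative for ATRA against control. For IL-13 against control 3 were positive and 9 negative, with a median of -0.45 beside 0.00 over all genes. For IL-13 with ATRA against IL-13, 11 were positive and 1 negative, with a median of 0.37. The same IL-13 arrays enter both comparisons with opposite sign, so their opposite directions are not independent. How often all genes take each sign was not counted, so nothing is read from such counts, here or for the lists below. Pfkfb3, which makes an activator of glycolysis, gave 0.49 ± 0.10 for ATRA against control, with 0.48 at 12 h and 0.49 at 24 h (adjusted p = 0.101 in limma). Pfkfb2, its relative, gave 0.56 ± 0.47 on the tested probe, with -0.18 at 12 h and 1.31 at 24 h, and its other 3 probes gave -0.05, -0.32 and -0.43.

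Among 12 tested calcineurin and NFAT genes, Rcan1, a calcineurin regulator, had 624 and 423 with IL-13 and ATRA and 525 and 475 with ATRA, against 1208 and 795 with IL-13 and 738 and 831 in control cells. Its log2 difference was -0.65 ± 0.22 for ATRA against control and -0.93 ± 0.22 for IL-13 with ATRA against IL-13 (adjusted p = 0.105 in limma), and a second probe gave -0.83 and -0.95. Cabin1, a calcineurin inhibitor, gave -0.96 ± 0.60 for ATRA against control, which rests on a signal of 321 on the ATRA array at 12 h against 1520 in control cells. Its other 2 probes gave 0.09 and 0.04. Of 17 tested genes for CREB, MEF2 and class IIa deacetylase factors, 3 were positive and 14 negative for IL-13 against control, with a median of -0.48 beside 0.00 over all genes, and none passed. Hdac5 of this list gave -0.75 ± 0.24 for ATRA against control. Hdac7 was near background, well above it on the 2 control arrays and on 0 arrays with ATRA, IL-13 or both. Its difference is against undetected signal and is not read further, and its second probe was well above background on 0 arrays. Among 22 tested genes of calcium entry, release and reuptake, Ryr1, a calcium release channel, had 1811 and 1863 with IL-13 and ATRA, 1276 and 1338 with ATRA, and 1424 and 1370 with IL-13, against 572 and 810 in control cells. It gave 0.94 ± 0.16 for ATRA against control (adjusted p = 0.0647 in limma) and 1.04 ± 0.16 for IL-13 against control (adjusted p = 0.0576), and its other 2 probes disagreed, with 1.04 and 0.81 on one and -0.08 and -0.09 on the other. In this list 4 were positive and 18 negative for IL-13 against control, with a median of -0.19. P2rx4, described above beside Camkk2, was its other leading member.

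**Figure D4:**
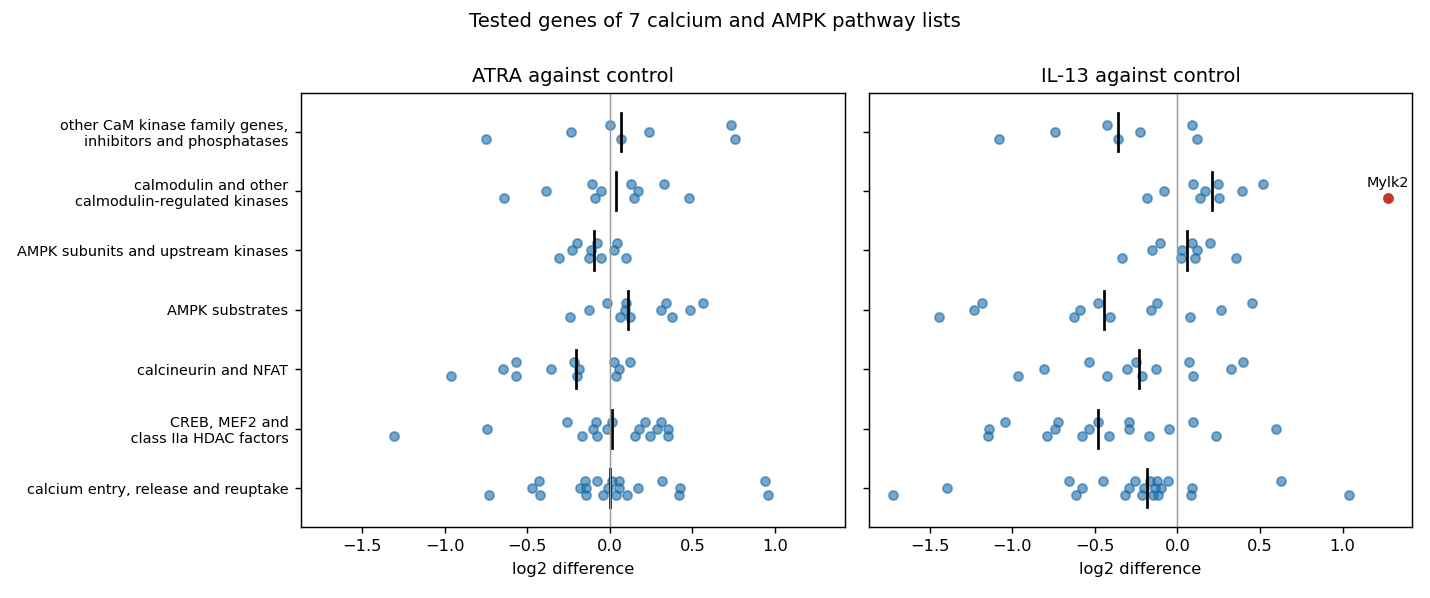
Log2 differences of all tested genes of the 7 pathway lists for ATRA against control and IL-13 against control, with 1 point for each gene, a black bar at the median of each list, and Mylk2 in red. Mylk2, at 1.27 for IL-13 against control, is the only point past the adjusted threshold, and the list medians for ATRA lie between -0.21 and 0.11.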

How the data were processed

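Per the file headers, the authors read 1-colour Agilent arrays (design 014868) with Feature Extraction 10.7.1.1, whose processed signal is an intensity with the background already subtracted, deposited without normalization between arrays. Other flags per spot, also deposited, gave well above background, saturation and outlying spots. The authors also deposited a table on a log2 scale, whose method is not given in the sources used here. Each of its columns followed its own array (Spearman at least 0.999996), and it served as an alternative.

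Control and outlying spots were left out, repeated spots of a probe were averaged, and log2 values were centred on each array's 75th percentile of 43379 spots. A probe was kept if both arrays of some treatment read it well above background (24017 probes). The probe with the highest mean stood for each gene. The model (limma 3.58.1, R 4.3.3) had terms for treatment and time with 3 residual degrees of freedom, and two-sided p-values were adjusted by Benjamini-Hochberg over 15440 genes. A difference at 12 h or at 24 h compares 2 arrays. Probe positions and the build mm9 come from the deposited annotation, and promoters from RefSeq, GRCm38.p6. The number of arrays limits the precision.

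The kinases, the pathway and marker lists and the naming rule were chosen with earlier results of these data known. Named were the 8 kinases, the 10 genes with the highest correlation with Camkk1, every called gene of the pathway lists and, from each list, the 2 tested genes with the largest absolute difference of ATRA against control. Alternatives changed the scaling, the background correction, the filter, the source of values, the time term, the choice of probe and the arrays included.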

Additional observations from a re-analysis of the deposited data

Results flagged for a closer look

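Differences whose sign changed between 12 h and 24 h were set apart, and 8 of the 43 differences checked did so. Some of them were near 0 at 24 h and show no clear reversal. The change from 12 h to 24 h rests on 1 array in each treatment and time and was not tested. For Camk1, ATRA against control gave 0.12 at 12 h and -0.02 at 24 h, a change of -0.14, and IL-13 against control changed by 0.040. For Camk1d, IL-13 with ATRA against IL-13 gave 0.27 and -0.64, a change of -0.92. For Camk2d, ATRA against control gave -0.48 and 0.00, a change of 0.48, and IL-13 against control gave -0.20 and 0.31, a change of 0.51. For Prkaa1, IL-13 against control gave -0.18 and 0.00, a change of 0.18. In the pathway lists, Pfkfb2 changed by 1.49 and Cabin1 by 2.56 for ATRA against control. For both genes the other probes gave between -0.43 and 0.09 as the mean of both times, and their change between times was not examined.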

How the results depend on the processing

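With no filter on dim probes, which tests more probes near background, the number of genes called was 0 for ATRA against control, 1 for IL-13 against control, 7 for IL-13 with ATRA against IL-13, 4 for IL-13 with ATRA against ATRA and 0 for the interaction, beside 287, 196, 407, 56 and 3. Slide as a random block gave 85 calls for IL-13 with ATRA against ATRA, and leaving out the time term gave 1 for the interaction. The cause was not tested. Leaving out 1 array at a time, which leaves fewer samples, gave 1 to 171 calls for ATRA against control, 2 to 357 for IL-13 against control, 15 to 516 for IL-13 with ATRA against IL-13, 3 to 45 for IL-13 with ATRA against ATRA and 0 to 8 for the interaction. Testing every probe on its own, added after seeing the data, gave 376, 273, 524, 81 and 3 calls in the order above. None of the 6 tested kinases other than Camkk1 was called in the 5 comparisons under this or any of the 15 other settings, where the lowest adjusted p was 0.0517.

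The mean of all probes turned the sign for Camk1, to -0.018 for ATRA against control and -0.078 for IL-13 against control. It did so for Prkaa1, to 0.23 for IL-13 against control and 0.15 for IL-13 with ATRA against ATRA, and for Pfkfb2, to -0.060 for ATRA against control. Leaving out 1 array turned the sign of 10 differences. Their ranges were -0.030 to 0.13 (Camk1, ATRA against control), -0.035 to 0.041 (Camk1, IL-13 against control), -0.59 to 0.049 (Camk1d, IL-13 against control), -0.51 to 0.14 (Camk1d, IL-13 with ATRA against IL-13) and -0.50 to 0.083 (Camk1d, IL-13 with ATRA against ATRA). They were -0.50 to 0.022 (Camk2d, ATRA against control), -0.21 to 0.31 (Camk2d, IL-13 against control), -0.20 to 0.026 (Prkaa1, IL-13 against control), -0.30 to 1.42 (Pfkfb2, ATRA against control) and -2.06 to 0.13 (Cabin1, ATRA against control).

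Under normexp correction, which adds an offset of 50 to every signal, the fitted log2 difference of Camkk1 was 4.63 for ATRA against control. It was 4.15 for IL-13 with ATRA against IL-13, and both are smaller than the sizes given above against the limit. Ryr1 passed for ATRA against control under normexp (0.92, adjusted p = 0.0234 in limma) and with slide as a random block (0.94, adjusted p = 0.0451). Camkk1 rests on 1 probe that was not well above background on 4 of 8 arrays, so the size of its difference is approximate.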
